A study of Homo sapiens with 9 samples.

Results

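The 10 genes described here are the regulators that switch proliferation genes on and off through the cell cycle: the E2F factors E2F1, E2F2, E2F3, E2F7 and E2F8, the transcription factors MYBL2 and FOXM1, the MuvB subunit LIN9, and the pocket proteins RB1 and RBL1. A gene was taken as measured when an array feature carried its symbol and no other, and all 10 had exactly 1 such feature, out of 14232 genes with a feature of their own. The cells were GM12878, a human lymphoblastoid line made by transforming B cells with Epstein-Barr virus. Cultures were harvested untreated at 0 h or after 8 h or 24 h in 10 µM D,L-sulforaphane, an isothiocyanate that reacts with protein thiols, with 3 cultures per group and 1 Affymetrix Human Exon 1.0 ST array per culture. The treatment protocol names a DMSO vehicle, but no vehicle arrays at 8 h or 24 h are analysed here, so time in culture and sulforaphane cannot be told apart. All cultures came from 1 line, so the p-values measure only the spread between cultures of that line.

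E2F proteins bind promoters of genes needed to enter S phase. E2F1, E2F2 and E2F3 activate them, and RB1 holds these activators inactive until cyclin-dependent kinases phosphorylate it. E2F7 and E2F8 are repressors that are themselves E2F targets and damp the same promoters later in S phase. LIN9 belongs to the MuvB core, which joins RBL1 or its relative RBL2 and a repressor E2F in resting cells and joins MYBL2 and then FOXM1 in cycling cells to switch on genes of G2 and mitosis. In lymphoblastoid cells viral proteins keep this machinery running.

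Values were log2 signals from 22011 transcript clusters, the array's unit for a gene, so a change of a given size is a fixed fold difference in signal. Signals of different genes come from different probes, so the regulators' levels are not compared with each other, only how their ratio changes between groups. Array means ran from 7.97 to 8.14. Untreated replicate 2 stood apart on the first principal component (score 54.4, against -29.9 to 16.4 on the other arrays), and 24 h replicate 1 lay at the opposite end. The 9 B-cell markers with their own cluster had means from 10.26 for CD79B to 13.43 for CD74. The 18 markers of T cells, myeloid cells, fibroblasts and erythroid cells had means from 3.94 to 8.38. These levels also rest on different probes and are only a description. At adjusted p below 0.05, 0 of the 27 were called in any comparison. Of all clusters, 0.595% were called at 8 h, 1.62% at 24 h and 0.327% from 8 h to 24 h. Limma gave unadjusted p below 0.05 to 1 of the 9 B-cell markers at 8 h and 3 at 24 h. The shares of all clusters were 15.1% and 20.4%.

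Promoter sequences upstream of the start are shown for 4 regulators, MYBL2 and E2F7, which fell at 24 h, and E2F1 and RBL1, which did not pass the test there. They are the last 120 bases before the RefSeq start (build GRCh38.p14), printed 5′ to 3′ along the gene's strand, from chr20:43666994-43667113 (plus strand) for MYBL2, chr12:77065570-77065689 (minus) for E2F7, chr20:33686386-33686505 (minus) for E2F1 and chr20:37095998-37096117 (minus) for RBL1. Capitals mark matches on either strand to an E2F site (TTTCCCGC, TTTCGCGC, TTTGGCGC or TTTGCCGC) or to a shorter E2F core (GGCGGGA), and the 2 can overlap.
MYBL2: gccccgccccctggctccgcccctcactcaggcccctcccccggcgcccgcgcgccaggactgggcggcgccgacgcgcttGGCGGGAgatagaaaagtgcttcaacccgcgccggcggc
E2F7: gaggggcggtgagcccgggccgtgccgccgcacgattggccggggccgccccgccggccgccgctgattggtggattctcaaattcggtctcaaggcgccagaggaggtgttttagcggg
E2F1: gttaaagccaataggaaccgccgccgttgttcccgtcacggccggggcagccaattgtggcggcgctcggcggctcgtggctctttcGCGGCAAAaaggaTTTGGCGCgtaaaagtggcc
RBL1: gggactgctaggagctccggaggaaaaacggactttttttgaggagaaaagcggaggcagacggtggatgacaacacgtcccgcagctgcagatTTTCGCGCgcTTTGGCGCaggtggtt

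Within 250 bases upstream, E2F1 and RBL1 each held 2 E2F sites, E2F2 held 1 and the first of the E2F3 windows held 1, against 2.79% of all 35116 RefSeq promoter windows of this length with at least 1. MYBL2 held the short core once, 39 to 33 bases before the start. E2F1, RBL1, both E2F3 windows and 1 of the LIN9 windows held it too, against 13.5% of all windows, and E2F7 held neither. The cell cycle homology region (CHR), the element bound by MuvB and searched as TTTGAA or TTCGAA on both strands, was present in the first E2F3 window and in 1 of the 3 LIN9 windows, against 14.3% of all windows. Of the 10 regulators, 8 had an entry in the RefSeq promoter table. E2F8 and FOXM1 were not matched, and the RB1 window belongs to a start inside the gene, so it is not shown. These matches are descriptions of letters and not of bound sites.

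The comparisons asked which regulators differed from untreated cells at 8 h, which at 24 h, and which moved between 8 h and 24 h. The 10 regulators were chosen with earlier results of these data known, so an excess over the share of all clusters is not independent support. At 24 h, 4 of the 10 regulators fell, 0 rose and 6 did not pass the test. The 4 were MYBL2, E2F8, FOXM1 and E2F7, whose signals were 2.16-fold, 2.04-fold, 1.99-fold and 1.36-fold lower than in untreated cells. Over all clusters 0.791% were called lower in that comparison, 0.831% higher and 1.62% either way. With unadjusted p below 0.05 limma counted 6 regulators at 24 h, against 20.4% of all clusters. At 8 h none of the 10 passed in either direction, where 0.595% of all clusters were called, 0.327% lower and 0.268% higher. With unadjusted p below 0.05, limma counted 4 regulators lower at 8 h (E2F8, E2F7, E2F1 and MYBL2), against 15.1% of all clusters in either direction. Between 8 h and 24 h, 1 of the 10 fell, FOXM1, against 0.227% of all clusters called lower, 0.1% higher and 0.327% either way. The median change over the 10 was -0.11 at 8 h and -0.22 at 24 h, beside medians of -0.01 and 0.02 over all clusters. In these bulk samples, fewer cycling cells and less RNA per cell cannot be told apart.

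**Figure D1:**
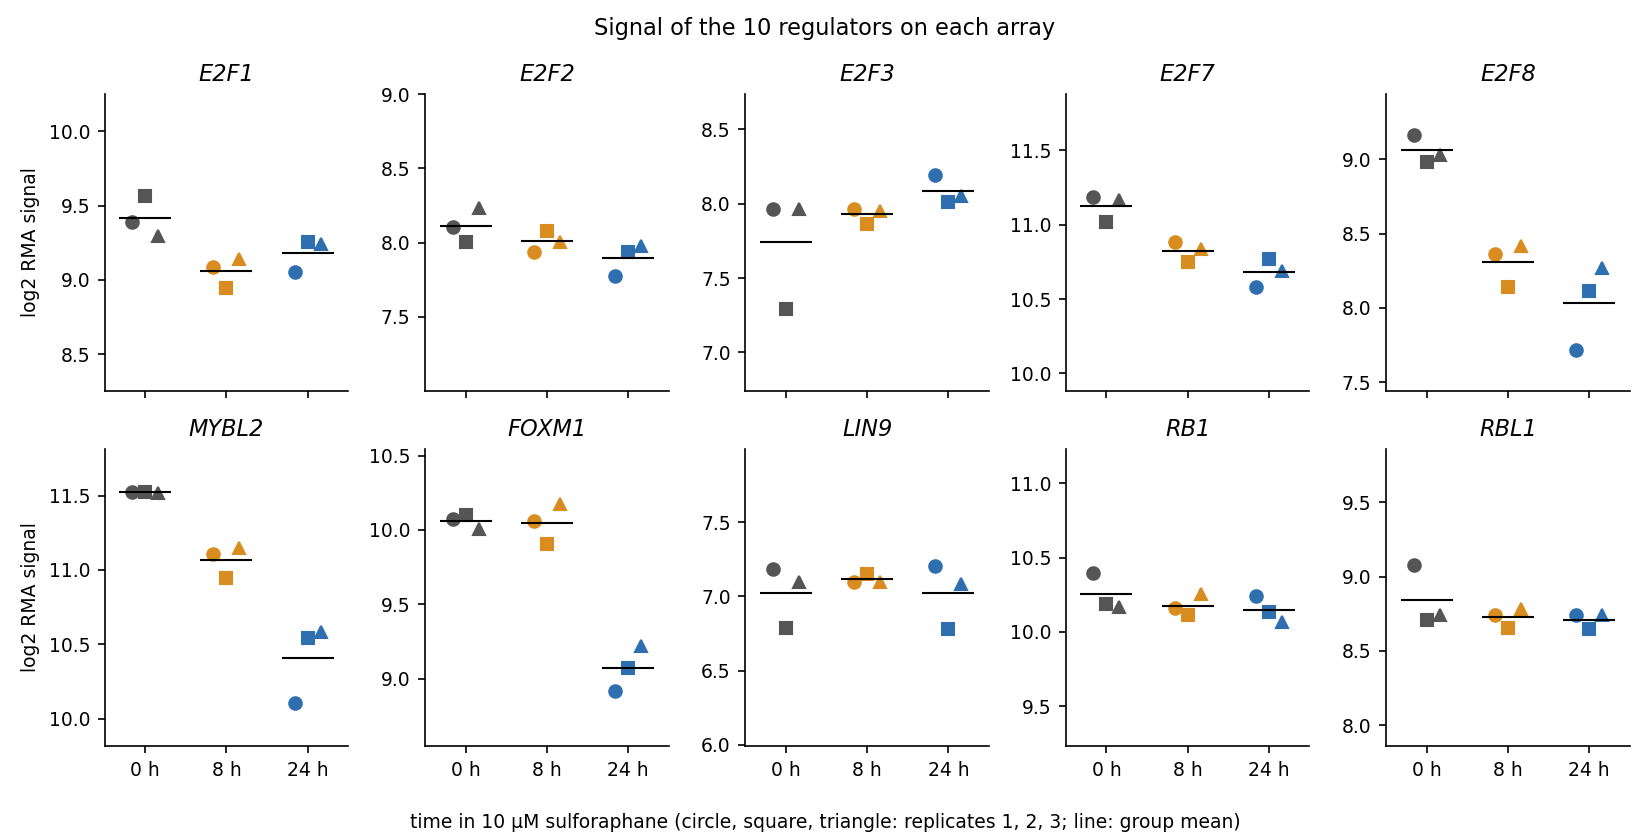
Log2 RMA signal (y axis, a span of 2 log2 units in every panel) of the 10 regulators on each of 9 arrays, by time in sulforaphane (x axis); circles, squares and triangles are replicates 1, 2 and 3 and lines are group means. FOXM1 arrays at 0 h and 8 h overlap and are followed by lower ones at 24 h, MYBL2 is lower at each later time, and E2F8 is lower already on the 3 arrays at 8 h.

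FOXM1, the forkhead factor that drives transcription of mitotic genes (cluster 3440598), read 10.07, 10.10 and 10.01 on the untreated arrays, 10.06, 9.90 and 10.17 at 8 h, and 8.92, 9.07 and 9.22 at 24 h. The 8 h arrays lay on both sides of the untreated ones, and the 24 h arrays lay below all 6 others. The mean was 10.06 ± 0.05 (SD, n = 3) untreated and 9.07 ± 0.15 at 24 h. The change at 24 h was -0.99 ± 0.10 (SE), with adjusted p = 0.0076. From 8 h to 24 h it fell by 0.98 ± 0.10 (adjusted p = 0.0091). At 8 h the difference from untreated was -0.01, with a 95% interval from -0.24 to 0.21 (adjusted p = 0.96).

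MYBL2, the Myb-family factor that joins MuvB as cells pass through S phase (cluster 3886223), read 11.53, 11.52 and 11.52 on the untreated arrays. It read 11.11, 10.94 and 11.15 at 8 h and 10.11, 10.54 and 10.58 at 24 h. The 3 groups did not overlap, and 24 h replicate 1 was the lowest. Untreated cultures differed little (SD 0.0046), and the spread at 24 h was wider (SD 0.26). MYBL2 fell by 1.11 ± 0.12 at 24 h (adjusted p = 0.013). The difference at 8 h was -0.46 ± 0.12 and did not pass (adjusted p = 0.14), and neither did the step of -0.66 ± 0.12 from 8 h to 24 h (adjusted p = 0.11).

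E2F8, an atypical repressor E2F (cluster 3365776), read 9.17, 8.98 and 9.03 on the untreated arrays, 8.36, 8.14 and 8.42 at 8 h, and 7.72, 8.12 and 8.27 at 24 h. Both treated groups lay below all untreated arrays and overlapped each other. At 24 h E2F8 fell by 1.03 ± 0.14 (adjusted p = 0.022). The difference at 8 h was -0.75 ± 0.14, with a 95% interval from -1.08 to -0.42 and adjusted p = 0.067. The step from 8 h to 24 h, -0.27 (interval -0.60 to 0.06), did not pass (adjusted p = 0.58).

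E2F7, the other atypical repressor (cluster 3463112), read 11.19, 11.02 and 11.16 untreated, 10.88, 10.75 and 10.84 at 8 h, and 10.58, 10.77 and 10.69 at 24 h. Again both treated groups lay below the untreated arrays and overlapped each other. E2F7 fell by 0.44 ± 0.08 at 24 h (adjusted p = 0.038), and the difference at 8 h was -0.30 ± 0.08 (adjusted p = 0.12). The ratio of E2F7 to E2F8 signal on each array was compared between groups, since a constant shift of an array cancels in it. The log2 ratio of E2F7 to E2F8 was higher by 0.45 at 8 h and by 0.58 at 24 h than in untreated cells, with no overlap of arrays (exact permutation p = 0.1, two-sided, the smallest that 3 against 3 arrays allow).

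The same comparison set the timing of FOXM1 against that of E2F8 and MYBL2. The log2 ratio of FOXM1 to E2F8 was higher by 0.74 at 8 h than untreated and differed by 0.04 at 24 h. That of FOXM1 to MYBL2 was higher by 0.44 at 8 h and by 0.12 at 24 h. The arrays did not overlap at 8 h for either ratio (exact permutation p = 0.1, two-sided) and overlapped at 24 h (p = 0.7 and p = 0.3, same test). These 3 ratios were chosen after their values were seen, and the smallest p over the 9 comparisons made with them was 0.15 after Benjamini-Hochberg adjustment of the exact permutation values.

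**Figure D2:**
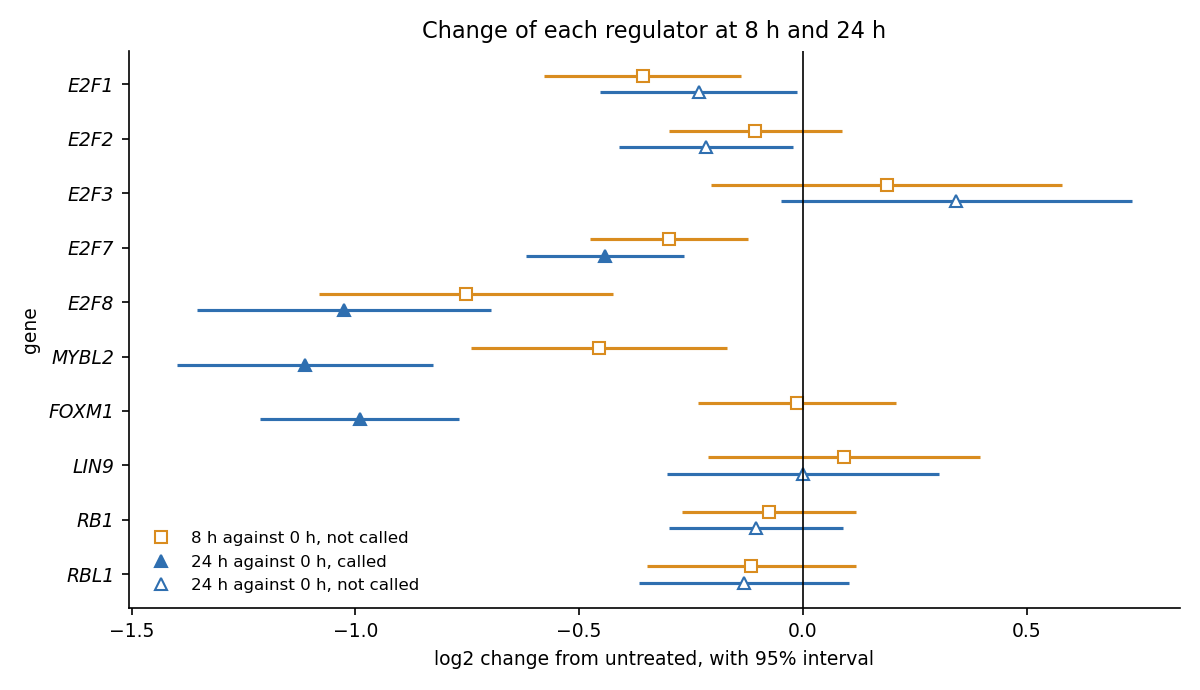
Log2 change from untreated (x axis) of each regulator (y axis) at 8 h (squares) and 24 h (triangles), n = 3 arrays per group, with 95% intervals from limma; filled symbols passed the test. The 4 filled triangles are E2F7, E2F8, MYBL2 and FOXM1, and the FOXM1 interval at 8 h spans 0.

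The fit was repeated with 1 array left out at a time. Calls over all clusters at 24 h then ranged from 21 to 768, against 357 with all arrays, and were 21 when untreated replicate 3 was dropped. In that fit the changes of MYBL2 (-1.12) and E2F8 (-1.04) were close to those with all arrays (-1.11 and -1.03). FOXM1 passed at 24 h in all 9 such fits (adjusted p from 0.0104 to 0.0449). MYBL2 passed in 8 and did not without untreated replicate 3 (adjusted p = 0.068). E2F8 passed in 6. Its adjusted p from limma was 0.0953 when untreated replicate 3 was dropped, 0.0578 for 8 h replicate 1 and 0.0596 for 24 h replicate 2. E2F7 passed in 2, those without untreated replicate 2 (adjusted p = 0.033) and 8 h replicate 2 (adjusted p = 0.0451). Of the 4 regulators called at 24 h, 1 was left when untreated replicate 3 was dropped and 2 when either 8 h replicate 1 or 24 h replicate 2 was. All 4 were called when untreated replicate 2, the array that stood apart, was dropped. The FOXM1 step from 8 h to 24 h did not pass without 8 h replicate 1 (adjusted p = 0.070), 8 h replicate 3 (0.060) or 24 h replicate 2 (0.071). At 8 h, E2F8 passed without 24 h replicate 1 (adjusted p = 0.040), which enters that comparison only through the shared spread. The direction at 24 h was lower in all 9 fits for all 4 regulators.

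**Figure D3:**
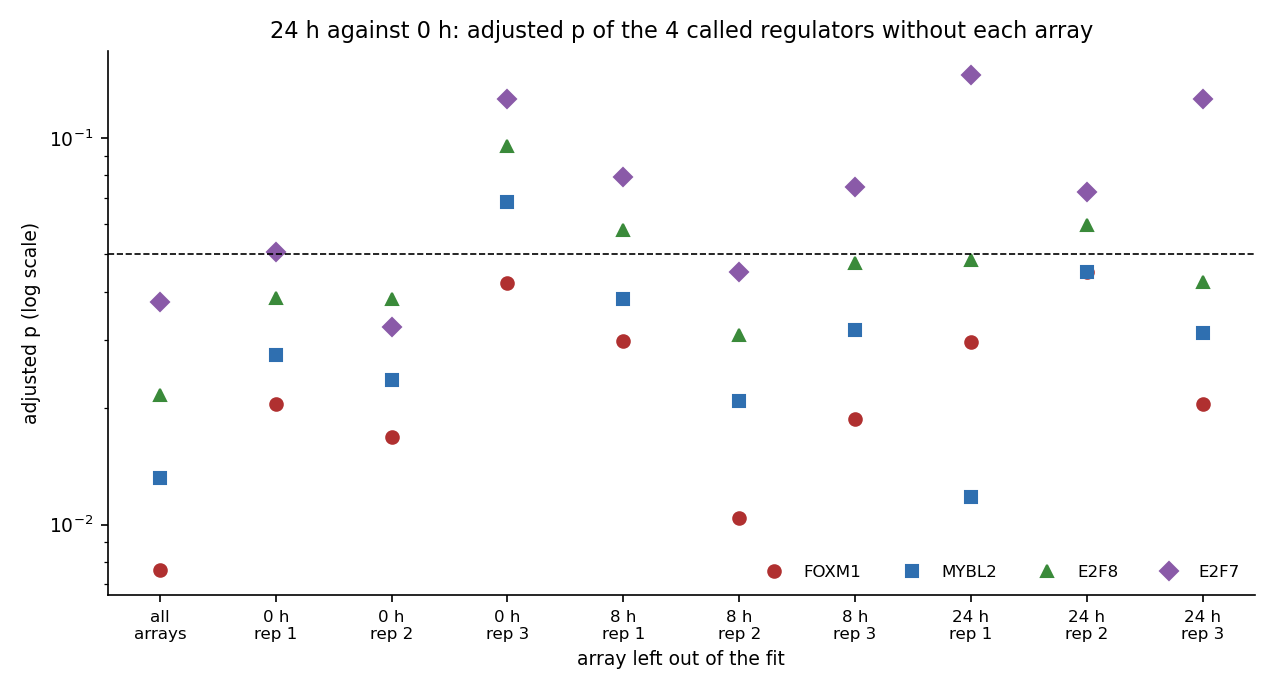
Adjusted p (y axis, log scale) of the 24 h change of FOXM1, MYBL2, E2F8 and E2F7 with all arrays and with each array left out (x axis); the dashed line is 0.05. The FOXM1 points stay below the line throughout, E2F7 lies above it in 7 of the 9 fits without 1 array, and the FOXM1 and MYBL2 points coincide without 24 h replicate 2.

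Single arrays of a group lay on one side of it for many regulators. At 24 h, replicate 1 was the lowest of its group for 6 of the 10 (E2F1, E2F2, E2F7, E2F8, MYBL2 and FOXM1). The same array was the highest, or tied for it, for the other 4. At 8 h, replicate 2 was the lowest for 8 of the 10. The 24 h replicate 1 array had the highest mean signal of the 9, 8.14, and the 8 h replicate 2 array the lowest of its group, 8.05. Without 24 h replicate 1, the 24 h change was -0.96 for MYBL2, -0.87 for E2F8, -0.92 for FOXM1 and -0.39 for E2F7. The part of array-wide signal in the spread between replicates was not tested.

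The activator E2Fs gave smaller differences. E2F1 (cluster 3903146) read 9.39, 9.56 and 9.30 untreated, 9.09, 8.95 and 9.14 at 8 h, and 9.05, 9.26 and 9.24 at 24 h. Both treated groups lay below the untreated arrays, by 0.36 ± 0.10 at 8 h (adjusted p = 0.14) and 0.23 ± 0.10 at 24 h (adjusted p = 0.23), and neither passed. E2F2 (cluster 2401448) read 8.11, 8.00 and 8.23 untreated, 7.94, 8.08 and 8.00 at 8 h, and 7.78, 7.94 and 7.98 at 24 h. Its 24 h arrays lay just below the untreated ones, with a difference of -0.22 (interval -0.41 to -0.02, adjusted p = 0.21), and its 8 h arrays overlapped them.

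E2F3 (cluster 2897576) was the activator whose difference pointed upward. It read 7.97, 7.29 and 7.97 untreated, 7.97, 7.86 and 7.95 at 8 h, and 8.19, 8.01 and 8.05 at 24 h. The low value was untreated replicate 2, the array that stood apart, and the 24 h arrays lay above all 3 untreated arrays, by a small margin over replicates 1 and 3. The 24 h difference was 0.34 ± 0.17 with all arrays (adjusted p = 0.29) and 0.12 without untreated replicate 2 (adjusted p = 0.48). The 8 h difference changed sign without that array, from 0.19 to -0.04.

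RB1, the pocket protein that restrains the activator E2Fs (cluster 3489020), read 10.40, 10.19 and 10.17 untreated. It read 10.16, 10.11 and 10.25 at 8 h and 10.24, 10.13 and 10.07 at 24 h, so the 3 groups overlapped. The interval of its 24 h change ran from -0.30 to 0.09, on both sides of 0 (adjusted p = 0.47). RBL1, the pocket protein p107 (cluster 3904747), read 9.08, 8.70 and 8.74 untreated, 8.74, 8.65 and 8.78 at 8 h, and 8.74, 8.64 and 8.74 at 24 h. Only untreated replicate 1 was higher than the rest, and the 24 h change was -0.13 (interval -0.37 to 0.10). LIN9, the MuvB scaffold (cluster 2458742), read 7.18, 6.79 and 7.10 untreated, 7.10, 7.15 and 7.10 at 8 h, and 7.21, 6.78 and 7.08 at 24 h. Replicate 2 was low at both 0 h and 24 h, and the mean difference at 24 h was 0.00 (interval -0.30 to 0.30).

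Over all 10 regulators, 4 had 8 h arrays wholly below the untreated ones (E2F1, E2F7, E2F8 and MYBL2), against 8.55% of all clusters, and 0 wholly above, against 9.06%. At 24 h the number was 6, with E2F2 and FOXM1 added, against 8.75% of all clusters. Only E2F3 lay wholly above at 24 h, against 15.6% of all clusters. From 8 h to 24 h, MYBL2 and FOXM1 were wholly lower, against 6.4% of all clusters, and E2F3 wholly higher, against 15.2%. Here too an excess over these shares is not independent support, since the regulators were chosen with earlier results known.

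The profiles of 4 regulators were set beside those of all other genes with their own cluster, after centring each gene on its mean over the 9 arrays. Likeness was the root mean square difference in log2 units over the 9 arrays, given as a description. The nearest genes to FOXM1 were PRC1 (0.081), CEP55 (0.092), KNL1 (0.10) and TOP2A (0.10). For MYBL2 they were ASF1B (0.076), CDCA5 (0.12), ZWINT (0.12) and SPC24 (0.14). The nearest to E2F8 were APOL6 (0.094), NCF4 (0.11), SPC24 (0.14) and GINS1 (0.14), and those to E2F1 were MRPL17 (0.039), MYOZ1 (0.060), ADSL (0.063) and TUBG1 (0.064). SPC24 was among the 4 nearest of both MYBL2 and E2F8. PRC1 and TOP2A are also in the G2/M list described further on, and GINS1 in the G1/S list. Between regulators, RB1 and RBL1 were closest (0.063), E2F8 and MYBL2 differed by 0.17, and MYBL2 and FOXM1 by 0.20. A small difference is easily reached by genes that vary little, as RB1 and RBL1 do.

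**Figure D4:**
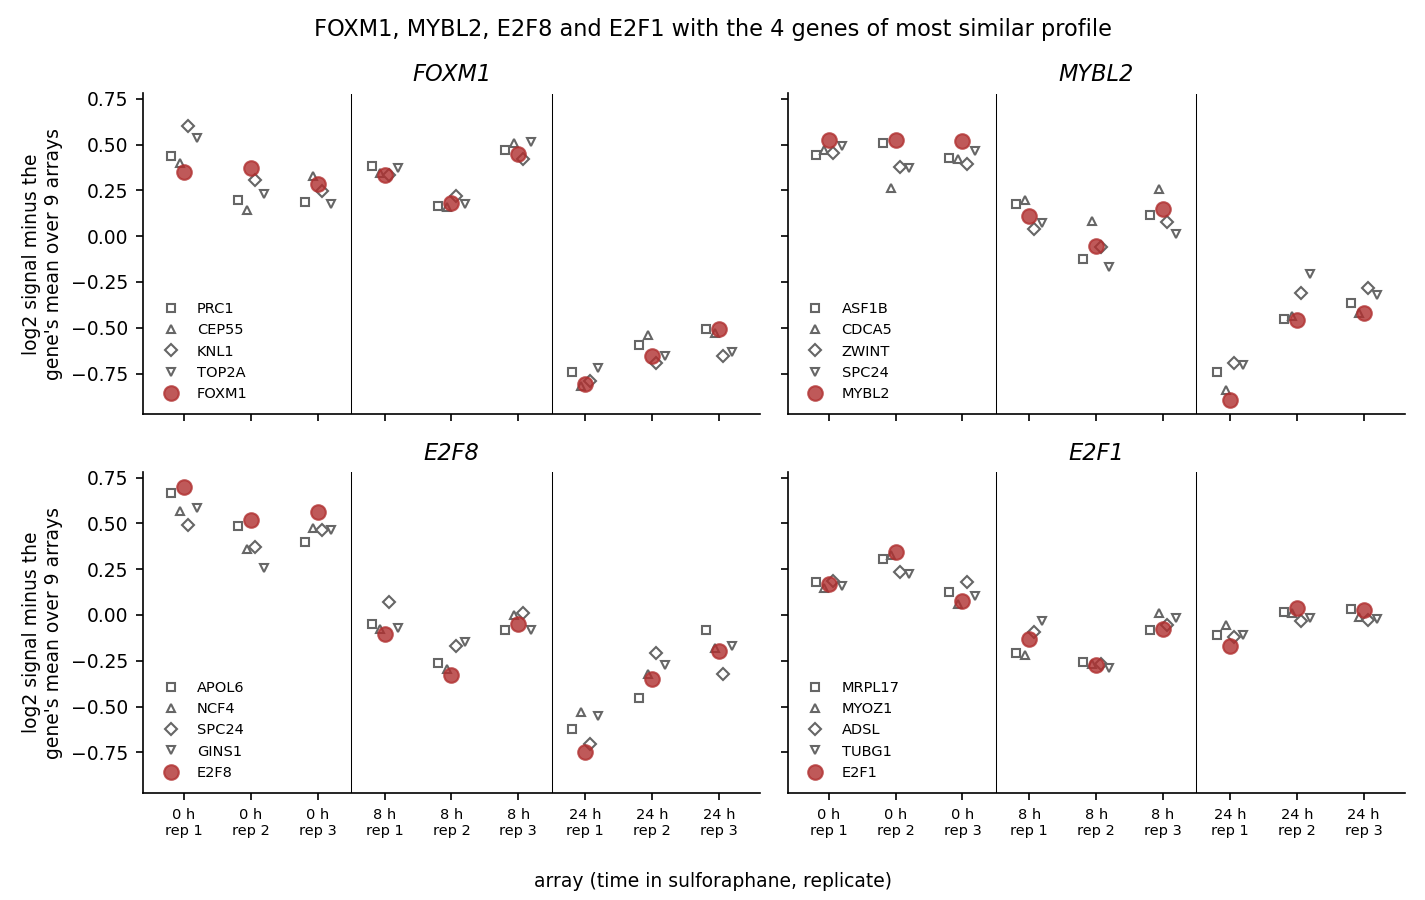
Log2 signal minus each gene's mean over 9 arrays (y axis) on each array (x axis) for FOXM1, MYBL2, E2F8 and E2F1 (filled circles) and the 4 genes nearest to each (open symbols). The FOXM1 panel holds values above 0 on the 6 arrays at 0 h and 8 h and below 0 on the 3 at 24 h, while MYBL2 and E2F8 lie lower on all 8 h arrays than on the untreated ones.

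The other genes of the pathway were taken from a list of 25 E2F partners, pocket proteins, MuvB subunits, G1 cyclins and kinases, and kinase inhibitors, of which 18 had their own cluster. At 8 h, 1 of the 18 fell, CCNE2, the cyclin that activates CDK2 at S-phase entry (-1.17 ± 0.15, adjusted p = 0.019), and 17 did not pass. Of all clusters, 0.595% were called at 8 h and 1.62% at 24 h. At 24 h, 1 fell, CDK2, the kinase that phosphorylates RB1 late in G1 (-0.51 ± 0.08, adjusted p = 0.030), and 17 did not pass. None passed from 8 h to 24 h. With unadjusted p below 0.05, limma counted 6 of the 18 at 8 h, 5 at 24 h and 4 from 8 h to 24 h, against 15.1%, 20.4% and 10.4% of all clusters. At 8 h CCNE2, CDK2, CCND2 and CCND3 were lower, and DYRK1A (0.22) and CDKN1A (0.37) were higher. At 24 h CDK2, CCNE2 and E2F4 were lower, and CDKN1A (0.46) and TFDP2 (0.40) were higher. Those counted from 8 h to 24 h, CCNE2, CCND2, CCND3 and TFDP2, were all higher at 24 h. The list medians were -0.02 at 8 h and 0.04 at 24 h, near those of all clusters. CCNE2 read 8.82, 8.21 and 8.47 untreated, 7.40, 7.15 and 7.44 at 8 h, and 7.84, 8.00 and 7.98 at 24 h, so its 24 h arrays lay between the other groups. CDK2 read 10.47, 10.34 and 10.22 untreated, 9.98, 9.85 and 10.02 at 8 h, and 9.77, 9.89 and 9.84 at 24 h. With 1 array dropped, CCNE2 passed at 8 h in 3 of 9 fits (dropping untreated replicates 1 or 2, or 24 h replicate 1), and CDK2 passed at 24 h in 2 of 9 (dropping untreated replicate 1, or 8 h replicate 2). The clusters annotated with RBL2, TFDP1, LIN37 and CDK4 also carry other genes' symbols, so they were not used.

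Target genes of these regulators were read from lists of G1/S and G2/M genes. Both lists were chosen with earlier results of these data known, so an excess over the share of all clusters is not independent support. Of 23 measured G1/S genes, a textbook set of E2F targets that includes CCNE2, 2 fell at 8 h and 5 at 24 h, 0 rose, and 0 passed from 8 h to 24 h. Of all clusters, 0.327% were called lower at 8 h and 0.791% at 24 h. With unadjusted p below 0.05, limma counted 18 of the 23 at 8 h, 17 at 24 h and 7 from 8 h to 24 h, against 15.1%, 20.4% and 10.4% of all clusters. Their median change was -0.40 at 8 h and -0.42 at 24 h, and all 23 changes were below 0 at both times. CDC6, which licenses replication origins, fell at both times (-1.03 ± 0.13 at 8 h, adjusted p = 0.018, and -0.74 ± 0.13 at 24 h, adjusted p = 0.038). TK1, the thymidine kinase of S phase, read 10.09, 10.10 and 10.13 untreated, 9.89, 9.68 and 9.89 at 8 h, and 9.39, 9.41 and 9.58 at 24 h, and fell by 0.65 ± 0.08 at 24 h (adjusted p = 0.017). The others called at 24 h were RRM2, CDC45 and GINS1, with changes between -0.99 and -0.73. From 8 h to 24 h the median was 0.04, 13 of the 23 differences were above 0, and 5 genes lay wholly lower and 5 wholly higher. Over all clusters the median was 0.02, and 12739 of 22011 differences were above 0. Of those clusters, 6.4% lay wholly lower and 15.2% wholly higher. The smallest p-values were those of TK1 (-0.36, adjusted p = 0.16) and RRM1 (-0.48, adjusted p = 0.18), while CCNE2 (0.61, adjusted p = 0.21) and CDC6 (0.30, adjusted p = 0.48) had positive differences.

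Of 29 measured G2/M genes, a set of MuvB, MYBL2 and FOXM1 targets, 0 passed at 8 h with limma. The 4 with unadjusted p below 0.05 are 13.8% of the list, near the 15.1% of all clusters. The smallest p-values there were those of AURKB (-0.26) and AURKA (0.19), both mitotic kinases. At 24 h 20 of the 29 fell and 0 rose, and from 8 h to 24 h 15 fell and 0 rose. Of all clusters, 0.791% were called lower at 24 h and 0.227% from 8 h to 24 h. With unadjusted p below 0.05, limma counted 25 of the 29 at 24 h, against 20.4% of all clusters. From 8 h to 24 h it counted 28, against 10.4%. The median change of the list was 0.07 at 8 h and -0.78 at 24 h, beside -0.01 and 0.02 over all clusters. PLK1, TPX2, AURKB, AURKA and MKI67 had the smallest p-values, with changes from -1.42 to -0.91 between 8 h and 24 h. The lists and the regulators share the same 3 untreated arrays, so their changes are not independent results.

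**Figure D5:**
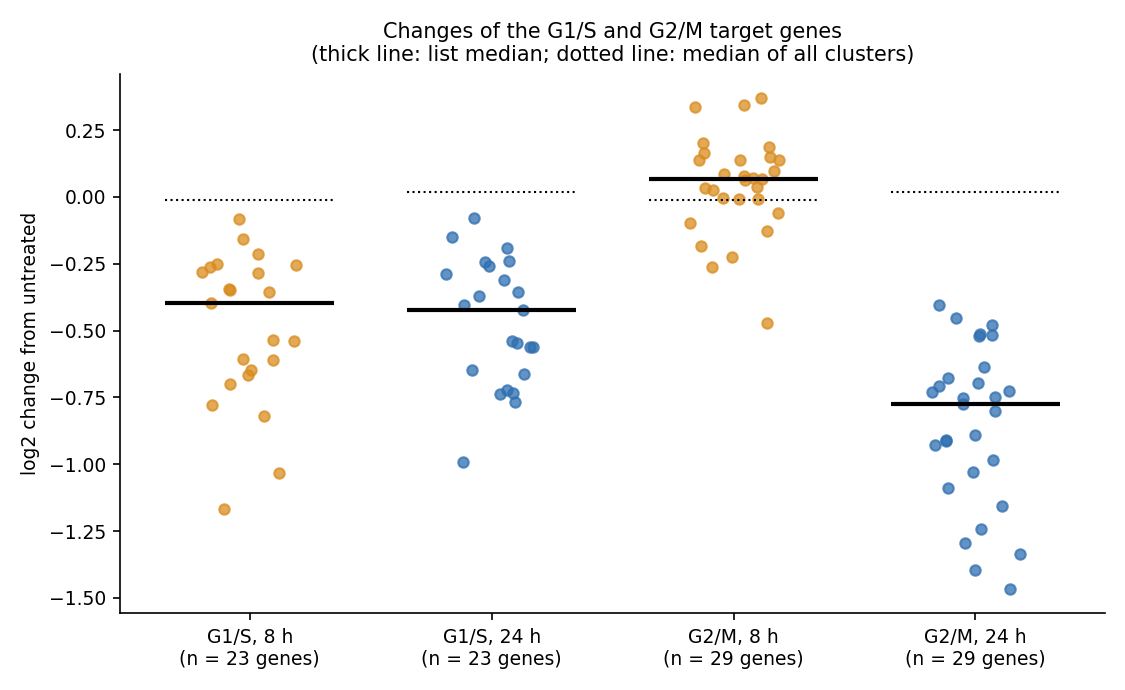
Log2 change from untreated (y axis) of each G1/S target (n = 23 genes) and G2/M target (n = 29 genes) at 8 h and 24 h (x axis); points are genes, thick lines list medians and dotted lines medians over all clusters. The G1/S medians are -0.40 and -0.42, and the G2/M median goes from 0.07 to -0.78.

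The counts of called targets moved when single arrays were dropped, as did those over all clusters. At 24 h, 357 clusters were called with all arrays, 21 on dropping untreated replicate 3, 56 on dropping 8 h replicate 1, 101 on dropping 8 h replicate 3, and between 34 and 55 when any 24 h array was dropped. Dropping untreated replicate 1 gave 768 at 24 h, dropping untreated replicate 2 gave 314, and dropping 8 h replicate 2 gave 343. At 8 h, 131 clusters were called with all arrays. The number was 654 on dropping untreated replicate 1, 291 on dropping untreated replicate 2 and 9 on dropping untreated replicate 3. Dropping an 8 h array left between 21 and 83, and dropping a 24 h array between 43 and 76. From 8 h to 24 h, 72 were called with all arrays. The number was 160 on dropping untreated replicate 2 and 4 on dropping 8 h replicate 1. Dropping 8 h replicate 3 left 10, and dropping a 24 h array left between 11 and 18. The G1/S count of 2 at 8 h rose to 10 when untreated replicate 2 was dropped. It was 1 on dropping 24 h replicate 3, and 0 on dropping untreated replicate 3, 24 h replicate 2 or any single array of the 8 h group. The G1/S count of 5 at 24 h rose to 9 when untreated replicate 2 was dropped. It was 3 on dropping 8 h replicate 3, 1 on dropping 8 h replicate 1 or the third 24 h array, and 0 on dropping untreated replicate 3 or either of the other 24 h arrays. The G2/M count of 20 at 24 h rose to 22 when untreated replicate 2 was dropped and to 21 without 8 h replicate 2. It was 6 when untreated replicate 3 was dropped. Dropping 8 h replicate 1 left 11, dropping 8 h replicate 3 left 12, and dropping 1 of the 24 h arrays left 8, 7 and 9 for replicates 1, 2 and 3. The G2/M count of 15 from 8 h to 24 h rose to 22 when untreated replicate 2 was dropped. It was 3 on dropping 8 h replicate 1, 6 on dropping 8 h replicate 3 and 12 on dropping untreated replicate 3. Dropping any 24 h array left between 6 and 8. In all of these fits, 0 targets were called higher at 24 h against untreated.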

How the data were processed

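The authors summarised the probes of core transcript clusters with gene-level RMA and sketch-quantile normalization in Affymetrix Expression Console, per the labels, and deposited 1 log2 signal per cluster and array. For software versions, annotation release and genome build, nothing was given in the sources used here. Signals were fitted as deposited, over all 22011 clusters, with limma 3.58.1 in R 4.3.3: 1 mean per group, the spread shared over the 9 arrays, eBayes, two-sided tests, and Benjamini-Hochberg adjustment over all clusters within a comparison. A cluster was called at adjusted p below 0.05. Of the clusters, 14432 carried 1 symbol, 2408 several and 5171 none. For a symbol with several clusters the one with the highest mean was used. Named were the 10 regulators, partner genes called in any comparison, up to 4 called targets per list and comparison with the smallest p (otherwise 2), and the 4 nearest profiles of 4 regulators. The regulators and lists were chosen with earlier results of these data known. The within-array ratios and 1 alternative were added after their values were seen. The fit was tested on simulated data. Arrays give signal and not counts, and their number limits the precision.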

Additional observations from a re-analysis of the deposited data

Results flagged for a closer look

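The effects at 8 h and at 24 h differed by the test of the difference itself, 24 h against 8 h, for FOXM1 (-0.98 on the log2 scale) and for 5 named G2/M targets: PLK1 (-1.42), MKI67 (-1.20), TPX2 (-1.17), AURKB (-1.07) and AURKA (-0.91). The adjusted p from limma was 0.0091 for FOXM1, 0.0025 for PLK1 and TPX2, 0.0035 for AURKA and 0.0061 for AURKB and MKI67. In each the 24 h arrays lay below all 8 h arrays. Dixon's test for an outlying sample was not run on groups of 3.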

How the results depend on the processing

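Beside the fit described, 10 other settings and 9 fits without 1 array were tried. The number of regulators called ran from 0 to 1 at 8 h, from 1 to 4 at 24 h and from 0 to 1 from 8 h to 24 h over the fits without 1 array. At 8 h it was 1 (E2F8) without the dimmest 25% of clusters, with quantile normalization and with arrays centred on their median, 5 with array weights and 2 with weights fitted gene by gene. At 24 h it was 5 with array weights and 4 with weights fitted gene by gene. The 24 h number was 1 (FOXM1) in the fit of only the 2 groups compared and at adjusted p below 0.01. From 8 h to 24 h it was 2 with either kind of array weights and 0 with only the 2 groups. The planned array weights stopped before convergence and called 9603 clusters at 8 h against 131 in the fit described, so the gene-by-gene weights were added after seeing the data; these called 1703. With only the 2 groups, 9 clusters were called at 8 h and 20 at 24 h, against 357. With the replicate number as a block, 3 of the 4 regulators passed at 24 h (FOXM1, MYBL2 and E2F8) and E2F7 did not (adjusted p = 0.061), 0 passed at 8 h and 1, FOXM1, from 8 h to 24 h. The 24 h calls of CDK2 (adjusted p = 0.0544) and CDC6 (adjusted p = 0.0547) were also lost under the block, and that of CDK2 with only the 2 groups, which left 0 partner genes called. The numbers are given only as labels. Deviations from the group means correlated above 0.1 in 3 of 9 same-numbered pairs, and not every array correlated best with its own number. Between untreated and 24 h arrays the correlation was 0.39 for replicate 1, 0.38 for replicate 2 and 0.06 for replicate 3. The highest value for different numbers was 0.13. Whether a number marks a shared batch was not tested. G1/S calls of 2 at 8 h and 5 at 24 h were 6 and 9 without the dimmest clusters, 11 and 12 with quantile normalization, 7 and 11 with centring, 20 and 22 with array weights, 15 and 18 with gene-by-gene weights, and 0 and 0 with only the 2 groups. With array weights and gene-by-gene weights in turn, the 0 G2/M calls at 8 h became 15 (5 lower, 10 higher) and 1 (higher). The 0 G1/S calls from 8 h to 24 h became 4 and 4, each 2 lower and 2 higher, with the same weights. The 1 partner gene called at 8 h became 9 with array weights (7 lower, 2 higher) and 3, all lower, with gene-by-gene weights. That count was 0 with only the 2 groups, where CCNE2 had adjusted p = 0.128 from limma, and at adjusted p below 0.01. G2/M calls of 20 at 24 h and 15 from 8 h to 24 h were 9 and 9 with only the 2 groups and 7 and 7 at adjusted p below 0.01, and 15 became 23 with quantile normalization and 27 with either kind of weights. The direction of the 24 h change of FOXM1, MYBL2, E2F8 and E2F7 was the same in all 19 alternatives.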
